A study of Mus musculus with 16 samples.

Results

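The EGFR, HGF and FGF receptor axes were followed through abdominal tumors by 10 genes, of 22298 in the files, that were chosen by name: the epidermal growth factor receptors Egfr, Erbb2 and Erbb3, the EGFR ligands Areg, Ereg and Hbegf, the hepatocyte growth factor Hgf and its receptor Met, and the fibroblast growth factor receptors Fgfr1 and Fgfr2. All 10 were counted in the files and all 10 were among the 16817 genes tested. The tumors came from wild-type, 6-week-old 615-line mice, each injected intraperitoneally with 500000 MFC cells, a mouse forestomach carcinoma line that grows in this strain. The vehicle group (8 tumors) received PBS and the IL-33 treatment group (8 tumors) received IL-33 at 20 μg/kg every 2 days by the same route, and neither group carried an engineered allele. The labels did not tie tumors to mice, so p-values measure the spread between tumors and are too small where tumors shared an animal.

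Amphiregulin (Areg), epiregulin (Ereg) and heparin-binding EGF-like growth factor (Hbegf) are made as membrane proteins, are shed by ADAM proteases and bind EGFR. ErbB2 has no ligand of its own and signals in pairs with the other receptors, and ErbB3 binds neuregulins and needs a partner because its kinase is weak. HGF is made mainly by stromal cells and acts on MET, and FGFR1 and FGFR2 prevail in mesenchymal and epithelial cells, respectively. IL-33 is an alarmin of damaged barrier tissues, and amphiregulin made by innate lymphoid cells, regulatory T cells and mast cells is a known part of the response to it.

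Levels are given as CPM, the count of a gene relative to the total count of its tumor. Library totals ranged from 14139268 to 24290794 counts, so that a floor of 3 counts was 0.124 to 0.212 CPM. Outside IL-33 replicate 7, counts were lowest for Fgfr2 (0 to 40 per tumor), Hgf (5 to 110) and Erbb3 (14 to 69), where counting error adds to the spread. Vehicle replicate 4 and IL-33 replicate 7 stood apart from the rest, and the fold change of each member is given with and without the latter. IL-33 replicate 7 held a summed 1601 CPM of 10 uterus and oviduct markers, against 11.2 to 23.0 CPM in the other 15 tumors, and it was the highest tumor for 43.0% of the tested genes. In vehicle replicate 4, genes with at least 5 kb of exons were shifted by -1.99 on the log2 scale relative to genes under 2 kb, against -0.75 to 0.24 in the other 15 tumors.

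The carcinoma label was checked against epithelial markers. Outside IL-33 replicate 7, Krt8 (181 to 975 CPM) and Krt19 (44.5 to 690 CPM) were abundant, whereas Cldn4, Cldn7, Esrp1 and Elf3 stayed under 1 CPM and Epcam lay between 0.054 and 2.40 CPM. The 10 markers summed to 379 to 1547 CPM in the vehicle tumors, 237 to 1366 CPM in 7 IL-33 tumors and 974 CPM in IL-33 replicate 7. The sum of 8 fibroblast markers was 547 to 6917 CPM, 678 to 3955 CPM and 14613 CPM in the same order. The epithelial sum is carried by Krt8 and Krt19, and 8 of the 10 epithelial markers were highest in IL-33 replicate 7, among them Epcam (98.8 CPM), Cdh1 (104 against at most 3.01 CPM elsewhere) and Krt18 (159 against at most 1.83 CPM). Marker sums of the ovary (1100 against at most 55.4 CPM), adipose tissue (2637 against at most 273 CPM) and endothelium (753 against at most 206 CPM) were also highest there. In bulk tumors, more cells of a type and more RNA per cell cannot be told apart.

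Relative to exon length, Areg was the most abundant member, with a median of 74.8 CPM per kb in the vehicle tumors, followed by Fgfr1 (41.0) and Ereg (23.5). Next came Met (6.02), Erbb2 (5.72) and Hbegf (3.67), then Egfr (0.663), Erbb3 (0.411), Hgf (0.302) and Fgfr2 (0.0256). The vehicle ranges of Fgfr1 (14.6 to 59.8 CPM per kb) and Ereg (11.5 to 48.0) overlapped, as did those of Met, Erbb2 and Hbegf, so the order among these neighbours did not exceed the spread between tumors. The range of Areg (59.8 to 97.0) lay above that of Ereg and met that of Fgfr1, both at 59.8 in vehicle replicate 3. The ranges of Egfr, Erbb3 and Hgf overlapped. Outside IL-33 replicate 7, each of the 3 EGFR ligands was thus more abundant per kb than Egfr itself.

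Areg and Egfr, the most abundant ligand and its receptor, are shown by the 250 bases before their transcription starts (RefSeq, GRCm38.p6, plus strand, chr5:91139349-91139598 and chr11:16751953-16752202). Capitals mark matches, on either strand, to the cAMP response element (TGACGTCA), the GC box (GGGCGG), the TATA box (letters TATAAA), the CCAAT box and the AP-1 site (letters TGANTCA). None of these matches overlap.
Areg: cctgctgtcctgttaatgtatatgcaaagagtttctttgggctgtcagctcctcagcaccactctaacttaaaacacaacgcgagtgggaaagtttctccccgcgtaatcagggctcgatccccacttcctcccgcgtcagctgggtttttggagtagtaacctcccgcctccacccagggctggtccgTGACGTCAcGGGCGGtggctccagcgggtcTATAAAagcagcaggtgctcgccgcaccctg
Egfr: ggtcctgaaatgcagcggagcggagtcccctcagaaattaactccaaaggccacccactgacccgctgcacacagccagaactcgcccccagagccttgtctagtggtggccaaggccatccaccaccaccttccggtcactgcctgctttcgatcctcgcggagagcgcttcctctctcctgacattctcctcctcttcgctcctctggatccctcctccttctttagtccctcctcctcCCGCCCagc

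The Areg window held a cAMP response element from position -61, counted from the transcription start, a GC box from -52 and a TATA box from -31, and the Egfr window held only a GC box, on the minus strand, from -9. Over all 32851 windows of 250 bases, 1.55% held the cAMP response element, 32.7% the GC box, 12.4% the TATA box, 33.8% the CCAAT box and 6.75% the AP-1 site. The table held 6 of the 10 members (Areg, Egfr, Erbb2, Met, Hgf and Fgfr2), and of the remaining 4 genes Met held an AP-1 match (TGAGTCA from -54) and 3 GC boxes, Erbb2 a CCAAT box from -41, and neither Hgf (2 windows) nor Fgfr2 any of the 5 motifs. Ereg, Hbegf, Erbb3 and Fgfr1 had no entry.

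No member passed an adjusted p of 0.05 in the comparison of the IL-33 treatment group with the vehicle group (edgeR quasi-likelihood test, Benjamini-Hochberg adjustment), nor did any gene (0% of 16817). At an unadjusted p under 0.05, 1 of the 10 members was higher with IL-33 (Fgfr2) and 0 were lower, where 9.99% of all genes were higher and 1.17% lower. Without IL-33 replicate 7, 0 members were higher and 0 lower, where 1.83% of 15803 genes were higher and 2.29% lower, and again 0% passed the adjusted threshold. DESeq2 called 0 members at either threshold, beside 424 genes higher and 267 lower among all genes at the unadjusted one. At the unadjusted threshold limma voom with quality weights called 1 member lower (Egfr), beside 522 genes higher and 444 lower among all genes. The ranges of the groups overlapped in each member, and the share of all genes with separate groups was not counted.

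**Figure D1:**
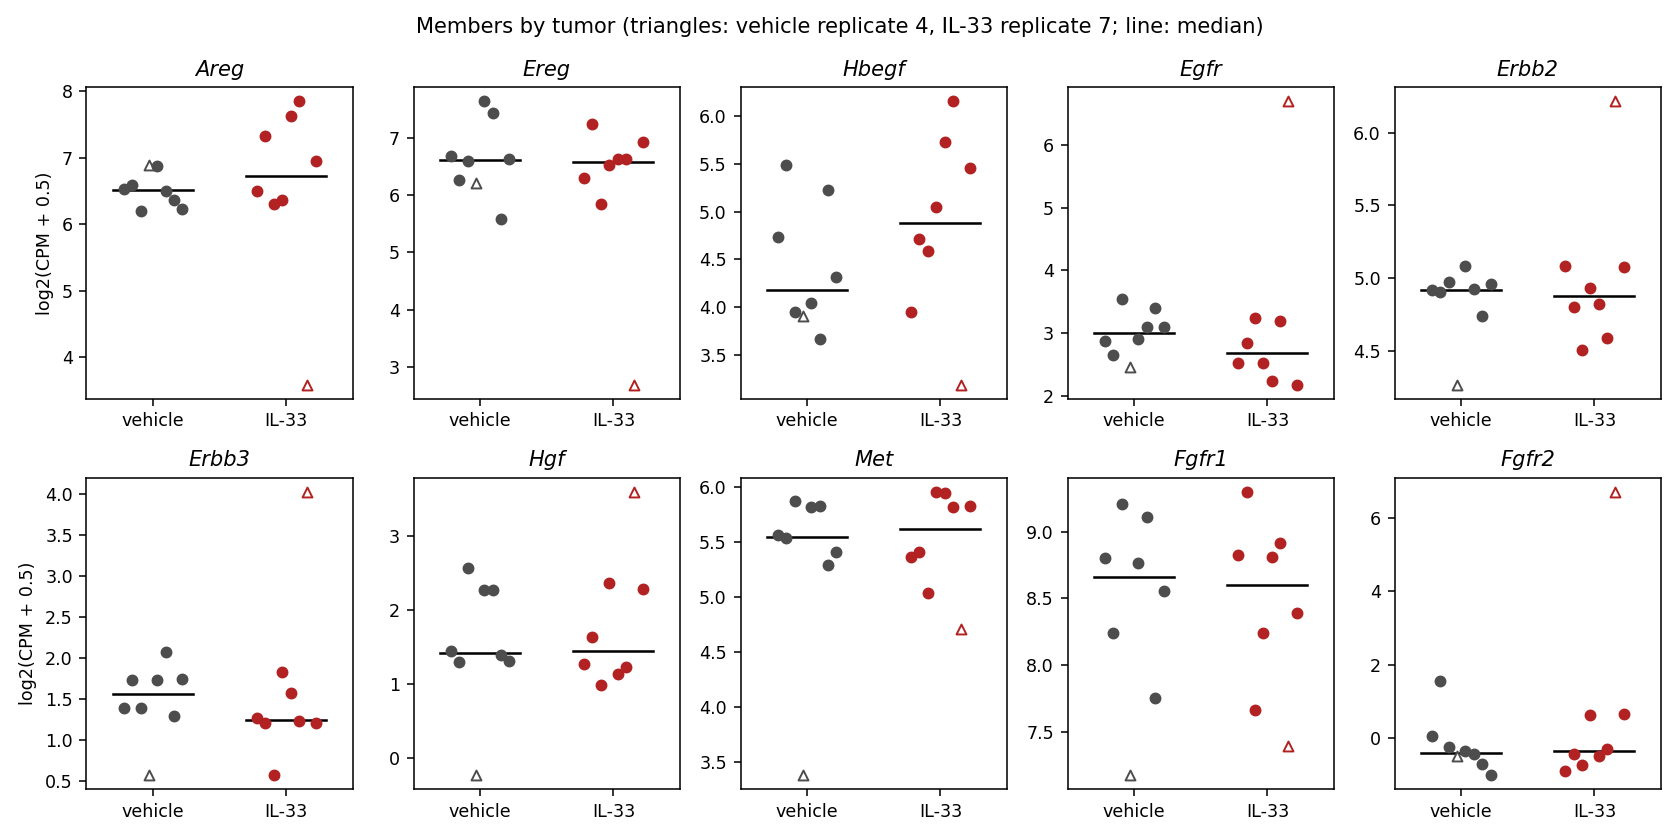
Level of each member in each tumor as log2(CPM + 0.5), with 8 vehicle (grey) and 8 IL-33 tumors (red) side by side in a panel with its own axis, the median as a line, and vehicle replicate 4 and IL-33 replicate 7 as open triangles. IL-33 replicate 7 was the highest tumor for 5 members (Egfr, Erbb2, Erbb3, Hgf, Fgfr2) and the lowest for 3 (Areg, Ereg, Hbegf). Among all tested genes it was the highest tumor for 43.0% and the lowest for 10.1%.

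Among the EGFR ligands, Areg (ENSMUSG00000029378, plus strand) reached higher levels in several IL-33 tumors than in any vehicle tumor, but the group difference did not pass the test. Areg lay between 72.7 and 118 CPM in the vehicle tumors (median 90.9, mean 92.8 ± 17.4 SD, n = 8). In the IL-33 tumors it lay between 11.6 and 230 CPM (median 106, mean 122 ± 71.2 SD, n = 8). IL-33 replicates 2, 5, 6 and 8 (161, 198, 230 and 123 CPM) exceeded every vehicle tumor, replicates 1, 3 and 4 (78.6 to 90.0 CPM) fell within the vehicle range, and replicate 7 fell far below it. The fitted log2 fold change was 0.32 ± 0.42 (SE), with a 95% interval of -0.57 to 1.21 (edgeR, Benjamini-Hochberg adjusted p = 0.849). It fell to 0.08 without IL-33 replicate 6, the tumor with the most Areg.

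Without IL-33 replicate 7, the mean of Areg in the IL-33 treatment group was 137 ± 60.1 CPM (SD, n = 7), 1.48 times that of the vehicle group. The log2 fold change was then 0.50 ± 0.29 (SE, 95% interval -0.11 to 1.11), with an unadjusted p of 0.102 and an adjusted p of 0.964 in edgeR. On log2(CPM + 0.5), the two-sided exact permutation test found a difference of 0.47 with p = 0.0814 over 6435 assignments, and 0.04 with p = 0.958 over 12870 assignments with all tumors. With TMM-scaled CPM the latter difference was -0.05 (exact permutation p = 0.947), so that its sign depended on the scaling. Leaving out vehicle replicate 4 as well, which was chosen after the data had been seen, gave a log2 fold change of 0.69 ± 0.27 (unadjusted p = 0.0201, adjusted p = 1.00 in edgeR). Vehicle replicate 4 had the highest Areg level of the vehicle group, 117.9 CPM, next to 117.5 CPM in vehicle replicate 5. Areg has a short transcript, 1215 bases of exons, and the part of transcript length in its level in vehicle replicate 4 was not tested.

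Hbegf (ENSMUSG00000024486, chromosome 18), a ligand of EGFR and ErbB4, showed the same pattern with wider spread. Its level was 12.3 to 44.4 CPM in the vehicle tumors (median 17.7, mean 23.1 ± 11.8 SD, n = 8) and 8.66 to 70.5 CPM in the IL-33 tumors (median 29.1, mean 33.9 ± 20.5 SD, n = 8). IL-33 replicates 5 and 6 (52.3 and 70.5 CPM) exceeded every vehicle tumor, replicate 7 lay below all of them, and the other 5 fell within the vehicle range. The log2 fold change was 0.55 ± 0.39 (SE, 95% interval -0.28 to 1.38, edgeR adjusted p = 0.651). Without IL-33 replicate 7 it was 0.71 ± 0.34 (95% interval -0.01 to 1.43), with an unadjusted p of 0.0518 and an adjusted p of 0.964 in edgeR and an unadjusted p of 0.0452 and an adjusted p of 0.993 in DESeq2. The exact permutation test gave p = 0.306 with all tumors and p = 0.0886 without replicate 7, and 6 of the other 7 IL-33 tumors lay above the vehicle mean.

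Ereg (ENSMUSG00000029377, plus strand), which binds EGFR and ErbB4, did not share this pattern. It lay between 47.6 and 198 CPM in the vehicle tumors (median 97.1, mean 108 ± 51.2 SD, n = 8) and between 5.98 and 151 CPM in the IL-33 tumors (median 94.8, mean 87.5 ± 43.1 SD, n = 8). No IL-33 tumor exceeded the highest vehicle tumors, replicates 5 and 6 (198 and 172 CPM), and only replicate 7 lay below the vehicle range. Its log2 fold change was -0.36 ± 0.44 (SE, 95% interval -1.28 to 0.56, edgeR adjusted p = 0.829) and -0.17 ± 0.28 (-0.76 to 0.42, adjusted p = 0.966) without that tumor. The exact permutation p was 0.439 and 0.878 in turn.

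Areg and Ereg are neighbours on the plus strand of chromosome 5 (GRCm38, Areg 91139599 to 91148432, Ereg 91074622 to 91093646), 45952 bases apart. Their ratio within a tumor needs no scaling between libraries and was examined after the values had been seen. The ratio of Areg to Ereg CPM lay between 0.522 and 1.71 in the vehicle tumors (median 0.831), and from 0.896 to 2.32 in the IL-33 tumors (median 1.27). Areg exceeded Ereg in 7 of 8 IL-33 tumors, replicate 7 included, and in 3 of 8 vehicle tumors. On the log2 scale the groups differed by 0.58 (means -0.11 ± 0.64 and 0.48 ± 0.52 SD), which the exact permutation test placed at p = 0.0674, and by 0.52 without replicate 7 (p = 0.116). The ranges overlapped, and the highest vehicle ratios were those of replicates 7 (1.71) and 4 (1.60). Areg and Ereg have 1215 and 4128 bases of exons. The length shift named for vehicle replicate 4 was also negative in vehicle replicate 7 (-0.49) and IL-33 replicate 3 (-0.75, ratio 1.39). It was 0.10, 0.03 and 0.15 in IL-33 replicates 5, 6 and 7, which had the highest ratios (2.01, 2.32 and 1.93). The part of the length shift in these ratios was not tested.

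Among the receptors, Egfr (ENSMUSG00000020122, chromosome 11, 16752203 to 16918158) was low in all tumors but 1. It lay between 5.02 and 11.2 CPM in the vehicle tumors (median 7.51, mean 7.75 ± 2.08 SD, n = 8), and between 4.03 and 8.96 CPM in 7 IL-33 tumors (mean 6.16 ± 2.01 SD). In IL-33 replicate 7 it was 103 CPM, 15 times the median of the other 15 tumors and 68.9% of all Egfr reads of the IL-33 treatment group. The log2 fold change was 0.99 ± 0.59 (SE, 95% interval -0.25 to 2.24, edgeR adjusted p = 0.572) with all tumors and -0.35 ± 0.22 (-0.82 to 0.11, unadjusted p = 0.128, adjusted p = 0.964) without replicate 7. The direction therefore followed this tumor. limma voom, which gave replicate 7 a weight of 0.0774 and vehicle replicate 4 a weight of 0.143, put the change at -0.49 ± 0.22 (unadjusted p = 0.036, adjusted p = 0.815).

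Erbb2 (ENSMUSG00000062312, chromosome 11, 98412470 to 98437716) was the least variable member, with a coefficient of variation of 15.5% in the vehicle tumors. Its level was 18.8 to 33.4 CPM in the vehicle tumors (median 29.8, mean 28.7 ± 4.43 SD, n = 8) and 22.2 to 33.4 CPM in 7 IL-33 tumors (mean 28.3 ± 4.37 SD), and it was 73.7 CPM in IL-33 replicate 7. The log2 fold change without replicate 7 was -0.06 ± 0.10, and its 95% interval, -0.28 to 0.16, was the narrowest among the members (edgeR adjusted p = 0.966). With all tumors it was 0.12 ± 0.17 (-0.23 to 0.48, adjusted p = 0.856).

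Erbb3 (ENSMUSG00000018166, chromosome 10, 128567523 to 128589652) lay between 0.99 and 3.70 CPM in the vehicle tumors (median 2.47, mean 2.42 ± 0.81 SD, n = 8) and between 0.984 and 3.04 CPM in 7 IL-33 tumors (mean 1.98 ± 0.637 SD). It reached 15.7 CPM in IL-33 replicate 7, 7.41 times the median of the other 15. The log2 fold change was 0.44 ± 0.46 (95% interval -0.54 to 1.41, edgeR adjusted p = 0.794) and -0.31 ± 0.26 (-0.85 to 0.23, adjusted p = 0.964) without that tumor. All 3 ErbB members were highest in IL-33 replicate 7, as were 43.0% of all tested genes. Areg, Ereg and Hbegf were lowest there, as were 10.1% of all tested genes. Of other EGFR ligands, Tgfa (19.2 CPM) was highest in that tumor, Btc (1.88 CPM) and Epgn (0.114 CPM) were lowest, and Egf (0.912 CPM) was neither. The markers of other tissues in that tumor are given above, and their part in these levels was not tested.

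Met (ENSMUSG00000009376, chromosome 6, 17463800 to 17573980) was moderately abundant and did not differ between the groups beyond their spread. It lay between 9.90 and 57.9 CPM in the vehicle tumors (median 46.2, mean 44.1 ± 15.6 SD, n = 8) and between 25.6 and 61.4 CPM in the IL-33 tumors (median 49.0, mean 46.9 ± 13.7 SD, n = 8). The low values were vehicle replicate 4 (9.90 CPM) and IL-33 replicate 7 (25.6 CPM), and the other 14 tumors lay between 32.2 and 61.4 CPM. edgeR put the log2 fold change at 0.07 ± 0.25 (95% interval -0.46 to 0.61, adjusted p = 0.959), 0.19 ± 0.23 without IL-33 replicate 7 (adjusted p = 0.964) and 0.06 ± 0.16 without both low tumors (-0.28 to 0.40, adjusted p = 1.00).

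Hgf (ENSMUSG00000028864, chromosome 5, 16553495 to 16620152), the only known ligand of MET, was scarce. It lay between 0.354 and 5.43 CPM in the vehicle tumors (median 2.17, mean 2.84 ± 1.68 SD, n = 8) and between 1.48 and 11.5 CPM in the IL-33 tumors (median 2.25, mean 3.75 ± 3.36 SD, n = 8). The lowest tumor was vehicle replicate 4, with 5 counts, and the highest was IL-33 replicate 7, in which the fibroblast marker sum was also highest. Its log2 fold change was 0.28 ± 0.46 (95% interval -0.70 to 1.26, edgeR adjusted p = 0.887) and -0.12 ± 0.40 (-0.96 to 0.72, adjusted p = 0.977) without IL-33 replicate 7.

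Fgfr1 (ENSMUSG00000031565, chromosome 8, 25513654 to 25575718) was abundant in all tumors and did not differ between the groups beyond their spread. It lay between 144 and 590 CPM in the vehicle tumors (median 405, mean 383 ± 156 SD, n = 8) and between 168 and 628 CPM in the IL-33 tumors (median 392, mean 378 ± 154 SD, n = 8). In the fit, the log2 fold change was -0.04 ± 0.30 (95% interval -0.68 to 0.61, edgeR adjusted p = 0.985) and 0.09 ± 0.27 (-0.48 to 0.67, adjusted p = 0.975) without IL-33 replicate 7, with exact permutation p = 0.978 and 0.675. The lowest tumors were vehicle replicate 4 and IL-33 replicates 7 and 3, and the groups overlapped over most of their range.

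Fgfr2 (ENSMUSG00000030849, chromosome 7, 130162451 to 133123350 on the minus strand) was scarce in 15 tumors, with at most 40 counts, and abundant in 1. The span is that of GENCODE M21, and the window around the RefSeq start of Fgfr2 (130266759 to 130267058) lies inside it. Fgfr2 lay between 0 and 2.45 CPM in the vehicle tumors (median 0.265) and between 0.0454 and 1.07 CPM in 7 IL-33 tumors (median 0.241). The value of 0 was vehicle replicate 8, where a count of 0 allows up to 0.124 CPM. In IL-33 replicate 7 it was 104 CPM (1819 counts), 420.0 times the median of the other 15, and this tumor held 96.8% of the Fgfr2 reads of its group. Fgfr2 was the member past the unadjusted threshold, with a log2 fold change of 4.37 ± 1.52 (95% interval 1.16 to 7.57, edgeR unadjusted p = 0.0105, adjusted p = 0.418). Without this tumor it was -0.28 ± 0.81 (-2.0 to 1.44, unadjusted p = 0.732, adjusted p = 0.974), and the exact permutation test of all tumors gave p = 0.505. DESeq2 replaced the count of 1819 by 7, that of Egfr in the same tumor (1808) by 151 and that of Erbb3 (276) by 46, and gave log2 fold changes of -0.34, -0.33 and -0.30.

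**Figure D2:**
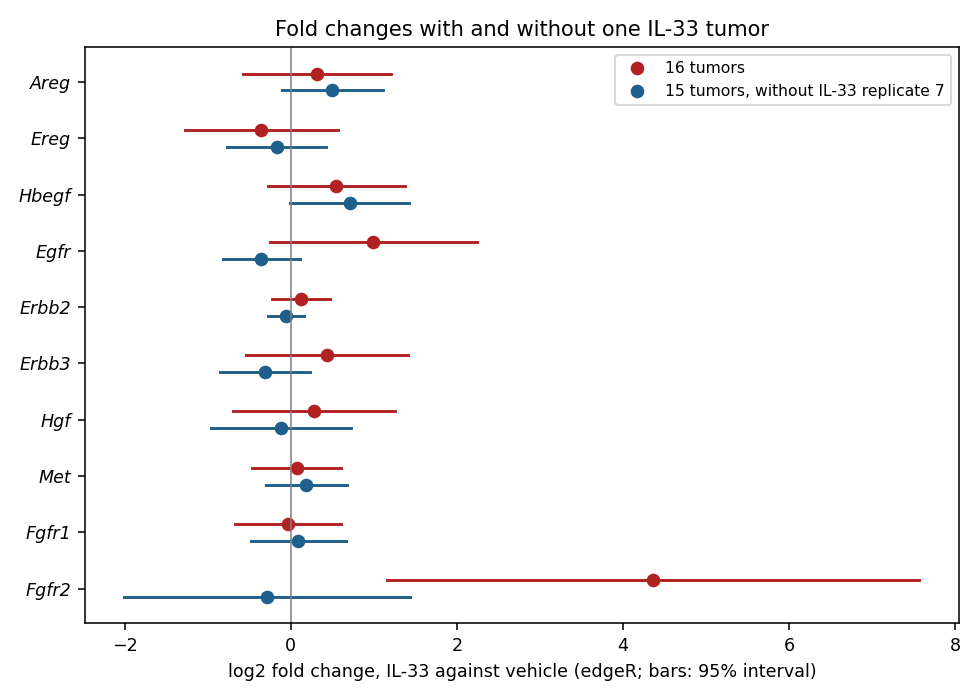
Log2 fold change of each member, IL-33 against vehicle, from edgeR with its 95% interval, over 16 tumors (red) and over 15 without IL-33 replicate 7 (blue). Removing this tumor moved Fgfr2 from 4.37 to -0.28 and Egfr from 0.99 to -0.35, and each of the blue intervals includes 0.

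The members were then compared with each other across tumors, as log2 of TMM-scaled CPM, in 6 pairs with adjustment over the pairs. Areg and Ereg had r = 0.85 and rho = 0.71 over 16 tumors (permutation test, adjusted p = 0.00642 and 0.0181). Without the 2 tumors farthest from the median of Areg, IL-33 replicates 6 and 7, r was 0.48. Over the 15 tumors without replicate 7, r was 0.44 and rho 0.65 (permutation p = 0.103 and 0.00987, adjusted p = 0.123 and 0.0592), so that the linear relation rested on that tumor. Within the vehicle group r was 0.42 (exact permutation p = 0.297) and within the IL-33 treatment group 0.94 (exact permutation p = 0.00513), but 0.68 in the 7 IL-33 tumors without replicate 7 (exact permutation p = 0.0881, adjusted p = 0.264). With CPM by total count the pooled rho was 0.49 (permutation p = 0.0571).

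Areg and Hbegf had r = 0.72 and rho = 0.54 over 16 tumors (permutation test, adjusted p = 0.00531 and 0.103). Without IL-33 replicates 6 and 7 r fell to 0.36, and over 15 tumors it was 0.57 (permutation p = 0.0267, adjusted p = 0.0796). The pair was related within the IL-33 treatment group (r = 0.89, rho = 0.79, exact permutation p = 0.0028 and 0.0279, adjusted p = 0.0154 and 0.138) and not detectably within the vehicle group (r = -0.00, exact permutation p = 0.996). In the other 7 IL-33 tumors r was 0.78 (exact permutation p = 0.0419, adjusted p = 0.251), and whether the groups differed in this relation was not tested.

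Ereg and Hbegf had r = 0.39 (permutation test, adjusted p = 0.209) over 16 tumors and opposite signs within the groups. In the vehicle tumors r was -0.77 and rho -0.62 (exact permutation p = 0.0238 and 0.115, adjusted p = 0.0477 and 0.138). The vehicle tumors with the most Ereg, replicates 5 and 6, lay below the vehicle median of Hbegf, and replicate 7 had the least Ereg and a high Hbegf level. In the IL-33 tumors r was 0.78 and rho 0.67 (exact permutation p = 0.0214 and 0.0831, adjusted p = 0.0321 and 0.166). With CPM by total count r was -0.64 and rho -0.36 in the vehicle group (exact permutation p = 0.0887 and 0.389, adjusted p = 0.133 and 0.584), so that the vehicle relation was not detectable on that scale. On the TMM scale r was 0.42 among the other 7 IL-33 tumors (exact permutation p = 0.338). The difference between the groups was not tested.

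**Figure D3:**
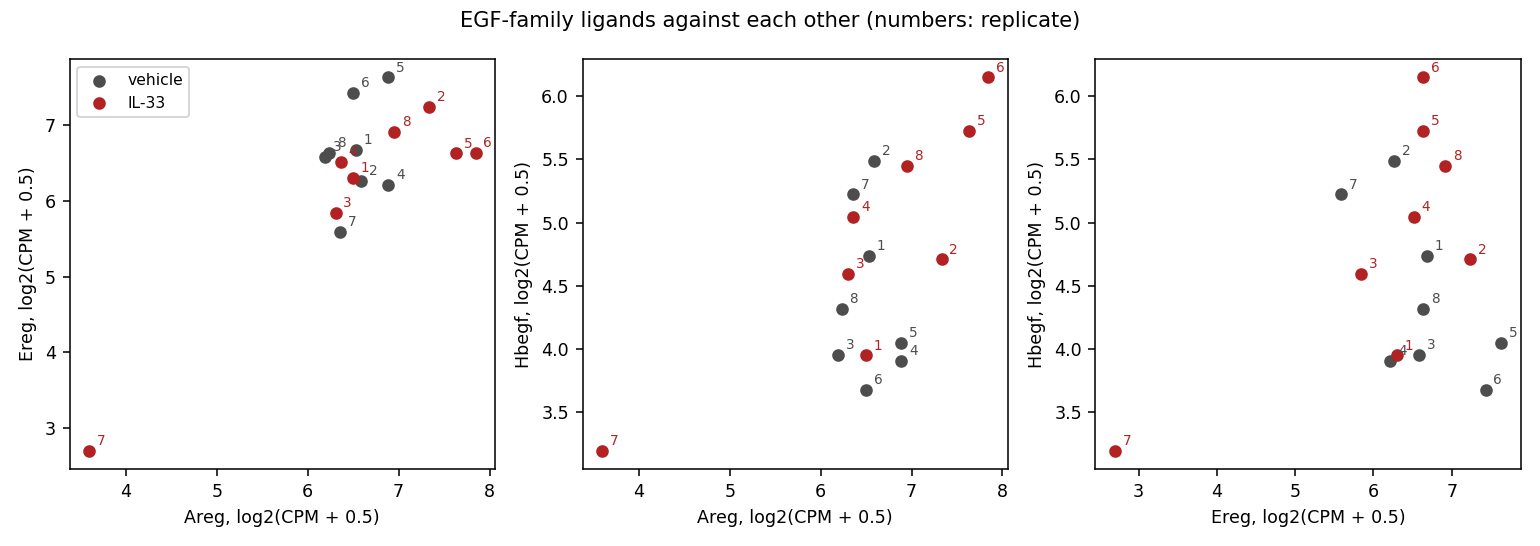
The 3 EGFR ligands against each other as log2(CPM + 0.5), 1 point a tumor with its replicate number, vehicle in grey and IL-33 in red. IL-33 replicate 7 stands alone at the lower left of each panel, IL-33 replicates 5 and 6 have the highest Areg and Hbegf levels, and vehicle replicates 5 and 6 have the highest Ereg levels.

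Erbb2 and Erbb3, partners at the membrane, had r = 0.87 and rho = 0.43 over 16 tumors (permutation test, adjusted p = 0.00531 and 0.191), and r was 0.14 without IL-33 replicates 3 and 7. The relation thus rested on those tumors. Hgf and Met had r = 0.33 over 16 tumors (permutation test, adjusted p = 0.256), and were related in the vehicle group (r = 0.95, rho = 0.88, exact permutation p = 0.00159 and 0.00724, adjusted p = 0.00952 and 0.0321). In the 7 vehicle tumors without replicate 4, r was 0.93 and rho 0.82, which did not pass after adjustment (exact permutation p = 0.0127 and 0.0341, adjusted p = 0.0762 and 0.0960). Within the IL-33 treatment group r was -0.46 (exact permutation p = 0.256), and 0.39 without replicate 7 (exact permutation p = 0.364). Over 15 tumors without IL-33 replicate 7, r was 0.80 (permutation p = 0.00103, adjusted p = 0.00618), and 0.55 once vehicle replicates 3 and 4 were left out too. Hgf and Fgfr1 had r = 0.04 over 16 tumors (permutation test, adjusted p = 0.879) and 0.80 within the vehicle group (exact permutation p = 0.015, adjusted p = 0.0451). Without vehicle replicate 4 the latter was 0.78 (exact permutation p = 0.0371, adjusted p = 0.0782). Within the IL-33 treatment group this r was -0.57 (exact permutation p = 0.143) and, without replicate 7, -0.06 (exact permutation p = 0.895), and over the 15 tumors it was 0.48 (permutation test, adjusted p = 0.0982).

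Hgf, Met and Fgfr1 all have long transcripts, with 7186, 7679 and 9875 bases of exons, and were set beside the length balance of the library. This balance was taken in each tumor as the median log2 deviation, from the median of the 15 tumors without IL-33 replicate 7, of genes with at least 5 kb of exons minus that of genes under 2 kb, and it was examined after the data had been seen. It was -1.99 in vehicle replicate 4, -0.75 in IL-33 replicate 3, -0.49 in vehicle replicate 7 and between -0.17 and 0.24 elsewhere. Over 16 tumors r with the balance was 0.74 for Met, 0.75 for Hgf and 0.44 for Fgfr1 (permutation test over 10 members, adjusted p = 0.0303, 0.0008 and 0.259), and rho was 0.58, 0.75 and 0.37 (adjusted p = 0.0999, 0.013 and 0.311). The relation of Fgfr1 was thus not detectable with IL-33 replicate 7 included. Over 15 tumors without IL-33 replicate 7, r with the balance was 0.93 for Met, 0.80 for Hgf and 0.62 for Fgfr1 (permutation test over 10 members, adjusted p = 0.0007, 0.0007 and 0.0107). The rho values were 0.76, 0.74 and 0.58 (adjusted p = 0.0112, 0.0112 and 0.0907). Without vehicle replicate 4 and IL-33 replicate 3, r was 0.65, 0.51 and 0.58. Over the 15 tumors r was -0.26 for Egfr, with 11326 bases of exons, and -0.20, 0.20 and 0.06 for Areg, Ereg and Hbegf. For Erbb2, Erbb3 and Fgfr2, with 5210, 6016 and 10328 bases, it was 0.25, 0.52 and 0.21 (permutation test, adjusted p = 0.564, 0.172 and 0.564). Over 16 tumors rho was 0.52 for Erbb3 and 0.53 for Fgfr2 (permutation test, adjusted p = 0.0999 for each). The part of the balance in the relations among Hgf, Met and Fgfr1 was not tested.

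**Figure D4:**
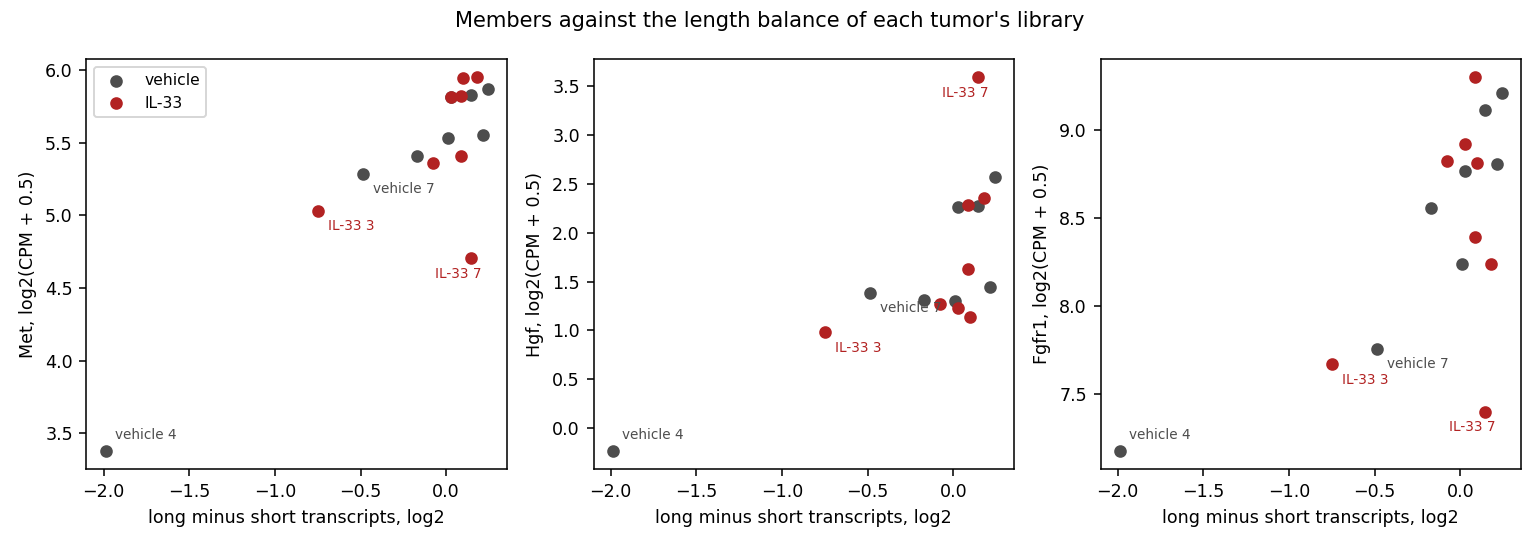
Met, Hgf and Fgfr1 as log2(CPM + 0.5) against the length balance of each tumor's library (median log2 deviation of long minus short transcripts), vehicle in grey and IL-33 in red. Vehicle replicate 4 lies at -1.99 with the lowest level of all 3 genes, IL-33 replicate 3 and vehicle replicate 7 come next along the horizontal axis, and IL-33 replicate 7 falls off the trend.

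The genes whose ranks were most like those of a member over the 16 tumors, among 13109 genes with a mean of at least 1 CPM, are given as a description. For Areg they were Stbd1 (rho = 0.94), Pvr (0.90) and Zpr1 (0.90), and without IL-33 replicate 7 Stbd1 (0.93), Tsc22d1 (0.90) and Hip1r (0.89). For Hbegf they were Cd300lf (0.91), Dlat (0.90) and Bcar3 (0.88), and then Cd300lf (0.90), Negr1 (0.89) and Pim1 (0.88). For Ereg they were Kif3a (0.89), St3gal1 (0.89) and Supt5 (0.87), and then Kif3a (0.86), St3gal1 (0.86) and Wbp1l (0.85). No ligand had another ligand among its nearest genes.

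For Egfr, the same 3 genes led with and without IL-33 replicate 7, namely Epas1 (rho = 0.93 and 0.92), a hypoxia-inducible factor subunit prominent in endothelium, Ppp1r9a (0.92 and 0.90) and Cyp4b1 (0.90 and 0.88). The same held for Erbb2, with Tctn2 (0.92 and 0.90), Prepl (0.85 and 0.84) and Zfp235 (0.85 and 0.81). Erbb3 was nearest to Spice1 (0.87), Kdelc2 (0.85) and Pcdhga6 (0.82), and over 15 tumors to 4921536K21Rik (0.86), Spice1 (0.84) and Raver1 (0.84). Fgfr2 was nearest to Pard6b (0.91), Olfr839-ps1 (0.88) and Hand2 (0.85), and over 15 tumors to Olfr839-ps1 (0.89), Pard6b (0.89) and Nsd2 (0.87). Fgfr2 met the limit of 1 CPM only through IL-33 replicate 7 (104 CPM), with means of 0.525 CPM in the vehicle tumors and 0.437 CPM in 7 IL-33 tumors. Its ranks over the 15 tumors rest on 0 to 40 counts. The same 13109 genes served with and without replicate 7.

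Met, Hgf and Fgfr1 had the closest neighbours. Those of Met were Smarca4 (rho = 0.98), Picalm (0.97) and Raph1 (0.97), and over 15 tumors Jak1 (0.98), Smarca4 (0.97) and Kansl1 (0.97). Those of Hgf were Hipk3 (0.96), Ttc17 (0.94) and Plpp3 (0.94), and then Hipk3 (0.95), Plxna1 (0.93) and Ttc17 (0.93). Those of Fgfr1 were Sec31a (0.96), Asb7 (0.96) and Kif26b (0.96), and then Asb7 (0.96), Sec31a (0.96) and Gprc5b (0.96).

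The wider pathways were read from 7 lists with 86 genes, of which 79 were tested. No gene passed an adjusted p of 0.05 (edgeR), and 5 were higher and 0 lower at an unadjusted p under 0.05, beside 9.99% higher and 1.17% lower among all genes. DESeq2 put 0 higher and 1 lower (Fgf11) there, beside 424 genes higher and 267 lower among all genes. All 5 genes higher in edgeR had IL-33 replicate 7 as their highest tumor, and 0 of the 5 remained past the threshold without it. For Fgf16 this was fixed in advance, because it passed the count filter only through that tumor and was not tested without it. They were Tgfa, another EGFR ligand (19.2 CPM in replicate 7, at most 0.552 CPM elsewhere), Mst1r, the receptor of macrophage-stimulating protein (33.3 against at most 2.37 CPM), St14, a membrane protease that activates HGF (60.5 against at most 4.03 CPM), Spint2, which inhibits such proteases (180 against at most 6.20 CPM), and Fgf16 (1.54 CPM, with no count in the other 15 tumors). The count of 5 in 79 did not exceed the share among all genes. Without replicate 7, 0 were higher and 1 of 78 lower, beside 1.83% and 2.29% of all genes. It was Fgf11, a growth factor kept inside the cell, which lay between 2.22 and 3.81 CPM in the vehicle tumors and 1.78 and 3.32 CPM in 7 IL-33 tumors (log2 fold change -0.58 ± 0.22, unadjusted p = 0.0176 in edgeR).

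The list medians are given beside the median log2 fold change of all tested genes, 0.06. They were 0.27 for the other EGF-family ligands and receptors, 0.03 for EGF ligand shedding, 1.08 for the HGF and MST1 axis, 0.63 for FGF receptors, co-receptors and binding proteins, 0.52 for FGF ligands, 0.04 for adaptors and regulators of the receptors and -0.00 for ERK targets and feedback. Without IL-33 replicate 7 they were -0.09, -0.05, 0.01, -0.11, -0.42, 0.08 and 0.07 in the same order, beside -0.01 for all genes. The high medians of the HGF and FGF lists were thus not seen in the other 15 tumors.

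Of the other ligands and receptors, Nrg1, a ligand of ErbB3 and ErbB4, lay between 10.3 and 34.0 CPM in the vehicle tumors (median 14.8) and between 8.26 and 34.4 CPM in the IL-33 tumors (median 23.0, log2 fold change 0.27 ± 0.31, and 0.41 ± 0.26 without replicate 7). Nrg2 had medians of 9.37 and 10.01 CPM and Btc, betacellulin, medians of 7.91 and 5.49 CPM, and Tgfa came next by its mean over all tumors, which rests on replicate 7. Its vehicle median was 0.268 CPM, under those of Epgn (0.802), Nrg4 (0.795) and Egf (0.647). The shedding proteases were abundant, with medians of 277 and 310 CPM for Adam9, 177 and 167 CPM for Adam15, 150 and 131 CPM for Adam10 and 82.1 and 76.8 CPM for Adam17, the main sheddase of amphiregulin. None of these 8 genes but Tgfa passed the unadjusted threshold.

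On the HGF side, Plau and Plat, plasminogen activators, had medians of 59.5 and 75.1 CPM and of 45.9 and 53.6 CPM in the vehicle and IL-33 tumors, and Mst1 medians of 20.5 and 19.8 CPM. On the FGF side, Flrt2 (161 and 113 CPM), Fgfrl1 (23.8 and 31.1 CPM), Flrt3 (23.8 and 19.4 CPM) and Il17rd (3.38 and 2.24 CPM) did not pass the threshold. The FGF ligands were scarce, with medians of 4.60 and 3.91 CPM for Fgf2, 2.93 and 3.02 CPM for Fgf1, 3.42 and 2.27 CPM for Fgf11 and 3.38 and 4.00 CPM for Fgf21. Fgf2 and Fgf1 reached 38.4 and 53.9 CPM in IL-33 replicate 7.

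Of the regulators downstream, some were high and some low in all or part of the 3 tumors with the most Areg. Errfi1, a feedback inhibitor of EGFR, lay between 168 and 367 CPM in the vehicle tumors and reached 438, 577 and 618 CPM in IL-33 replicates 2, 5 and 6, while its log2 fold change was 0.24 ± 0.34 (edgeR adjusted p = 0.868), and 0.39 ± 0.28 without replicate 7 (adjusted p = 0.964). Fosl1, an AP-1 subunit induced by ERK, lay between 37.3 and 155 CPM in the vehicle tumors and reached 158, 200.2 and 215 CPM in the same 3 tumors (0.14 ± 0.42, adjusted p = 0.949), with 7.92 CPM in replicate 7 and a log2 fold change of 0.33 ± 0.23 without it (adjusted p = 0.964). Dusp6, a phosphatase that dampens ERK, was 130 and 119 CPM in IL-33 replicates 5 and 6, below every vehicle tumor but replicate 4. In IL-33 replicate 2 it was 172 CPM, above every vehicle tumor (at most 165 CPM). Ccnd1, cyclin D1, was 637 CPM in IL-33 replicate 2, below all vehicle tumors but replicate 4. In IL-33 replicates 5 and 6 it was 865 and 782 CPM, within the vehicle range (226 to 955 CPM). Dusp4 was 258, 191 and 245 CPM in IL-33 replicates 2, 5 and 6, against at most 228 CPM in the vehicle tumors. Ccnd1 (medians 858 and 857 CPM), Dusp4 (184 and 140 CPM), Dusp6 (150 and 158 CPM), Eps8 (500 and 458 CPM), Lrig1 (203 and 184 CPM) and Ptpn11 (182 and 152 CPM) did not pass the threshold. These 3 tumors were singled out after their values had been seen.

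**Figure D5:**
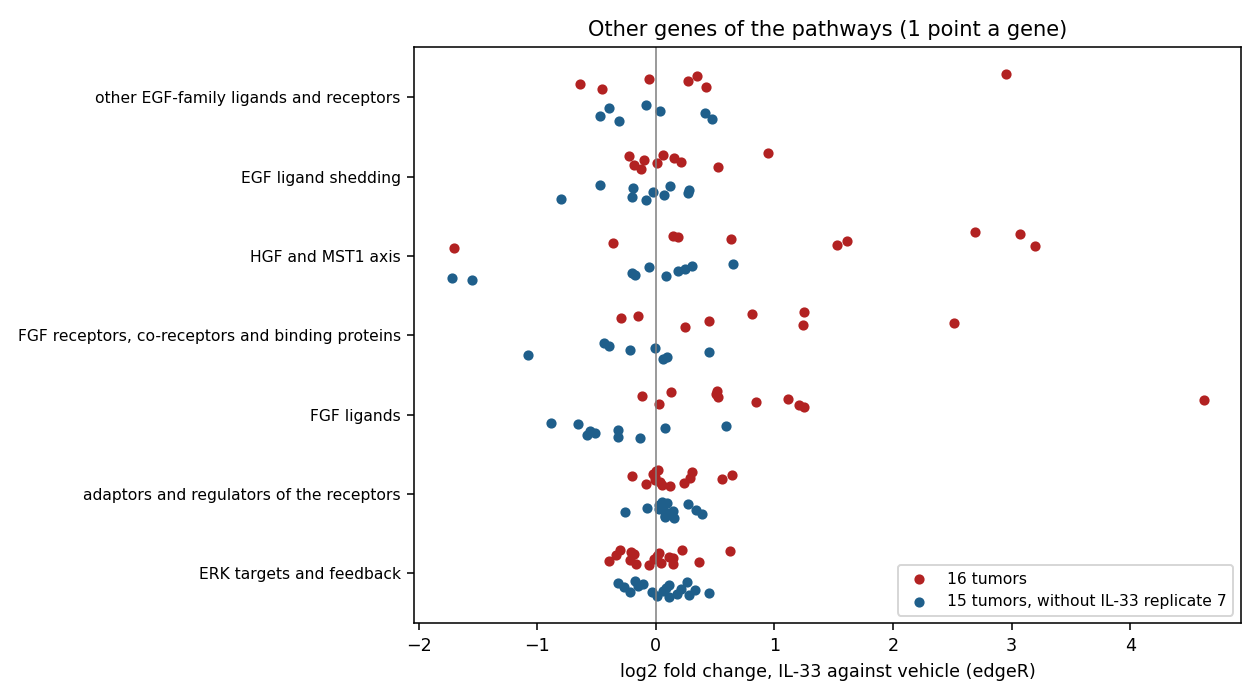
Log2 fold changes of the other genes of the pathways, IL-33 against vehicle (edgeR), 1 point a gene, over 16 tumors (red) and 15 without IL-33 replicate 7 (blue). The red points of the EGF, HGF and FGF ligand and receptor lists reach far to the right, up to 4.62 for Fgf16, and the blue ones do not. Fgf16 was not tested without IL-33 replicate 7 and has no blue point.

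The cell types known to release amphiregulin after IL-33 were read from their markers. Of the ILC2 and type 2 markers, Il13, Il5 and Il4 stayed under 1 CPM in all tumors, and Il17rb did in all but IL-33 replicate 7 (26.7 CPM). Il1rl1, the IL-33 receptor, was abundant, with 489 to 1318 CPM in the vehicle tumors, 395 to 905 CPM in 7 IL-33 tumors and 37.1 CPM in replicate 7, and it carried the sum of the 7 markers (492 to 1324, 399 to 912 and 67.3 CPM). Gata3 lay between 1.88 and 5.21 CPM and Klrg1 reached at most 3.77 CPM. The sum of the 6 regulatory T cell markers was 4.95 to 26.3 CPM in the vehicle tumors, 5.03 to 24.4 CPM in 7 IL-33 tumors and 15.6 CPM in replicate 7. The sum of the 8 mast cell markers was 13.5 to 106 CPM, 11.9 to 41.3 CPM and 225 CPM in the same order. Hdc (141 CPM) and Kit (41.2 CPM), which other cells also express, made most of the last value, while the proteases Cpa3, Cma1, Mcpt4 and Tpsb2 (7.92 to 13.3 CPM) stayed within their vehicle ranges. The sum of the 8 macrophage markers was 868 to 1944 CPM, 638 to 1795 CPM and 1559 CPM. The part of these cells in the levels of Areg was not tested.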

How the data were processed

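RNA-seq was done on poly(A)-selected RNA of 8 vehicle and 8 IL-33 tumors. The authors deposited raw gene counts per tumor, without normalization, and the submitters' processing notes name HISAT2, featureCounts and mm10. Strand and annotation release are not given in the sources used here, so overlapping genes could share reads. Groups came from the labels.

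Of 22298 identifiers, 22255 were named from GENCODE M21 (GRCm38), which also gave coordinates and exon lengths. The edgeR 4.0.16 test (R 4.3.3) ran on the counts of genes summing to 10 or more over the tumors (TMM, glmQLFit, glmQLFTest, Benjamini-Hochberg). For single members, group means of log2(CPM + 0.5) were also compared by exact permutation, two-sided, for which 0.00016 is the smallest possible p. Relations used log2 TMM CPM (prior count 2) and permutation tests with 100000 resamples, exact within groups. CPM is the count relative to the tumor's total count, and intervals are 95%. Any pair of libraries differed by more than sampling noise (chi-square per degree of freedom at least 8.79). Floors of 3 counts cover counting error only, and the intervals of the fold changes also cover the spread between tumors.

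Alternatives were upper-quartile scaling, DESeq2 1.42.0, filterByExpr, no filter, robust fitting, limma 3.58.1 voom with quality weights, a replicate block, and each tumor left out in turn. Same-numbered tumors had correlations of -0.35 to 0.41, with 4 of 8 pairs over 0.1, and whether the numbers pair the tumors was not tested. The members and gene lists were chosen with earlier results of these data known. Named were the members, pathway genes with an unadjusted p under 0.05 or among the 4 most abundant of a list, and the 3 genes most like each member. Models were tested on simulated counts.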

Additional observations from a re-analysis of the deposited data

Results flagged for a closer look

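Within the groups of 8 tumors, 7 of the 20 member levels examined (10 members in 2 groups) had a tumor separated from the nearest other by more than Dixon's 95% limit, which chance passes in about 1 in 20 groups. In IL-33 replicate 7 these were Egfr (103 CPM), Erbb2 (73.7 CPM), Erbb3 (15.7 CPM), Hgf (11.5 CPM) and Fgfr2 (104 CPM), each the highest of its group. In vehicle replicate 4, Met was the lowest of its group (9.90 CPM). In vehicle replicate 2, Fgfr2 was the highest of its group (2.45 CPM). The summed markers of the uterus and oviduct and the length balance of these libraries are given with the results, and their part in these values was not tested.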

How the results depend on the processing

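The adjusted count of genes stayed at 0 under each alternative but DESeq2 on the 15 tumors without IL-33 replicate 7, where it was 1 (Alas2, named after its value was seen), and that of members stayed at 0 under all. At the unadjusted threshold, genes higher and lower with IL-33 numbered 1680 and 196. They numbered 424 higher with DESeq2, 498 higher with filterByExpr, 522 and 444 with limma voom, 330 and 329 without vehicle replicate 4 and IL-33 replicate 7 together (chosen after seeing the data, as was DESeq2 on 15 tumors), and 286 and 392 with DESeq2 on 15 tumors. With 1 tumor left out in turn they ranged from 289 to 1902 and from 111 to 362, and without IL-33 replicate 7 they were 289 and 362. The cause of these shifts was not tested.

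The count of members past the unadjusted threshold was 1 higher (Fgfr2) and 0 lower. It was 0 higher with DESeq2, with filterByExpr (which left Fgfr2 out), with the replicate block and without IL-33 replicate 7 (range 0 to 1 over the tumors left out), and with limma voom 0 higher and 1 lower (Egfr). Without vehicle replicate 4 and IL-33 replicate 7, and with DESeq2 on 15 tumors, the 1 member was Areg and Hbegf in turn, not Fgfr2. The pathway lists had 0 higher and 1 lower with DESeq2 and without IL-33 replicate 7, and 0 higher and 3 lower (Fgf11, Timp3, Spred1) without both tumors.

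With the replicate number as a block, 246 genes were higher and 72 lower, Egfr was at -0.016, Erbb3 at -0.052 and Areg at 0.04. Correlations between same-numbered tumors ran from -0.35 to 0.41, and 1 of 8 vehicle tumors correlated best with its own number. Whether the numbers pair the tumors was not tested, and the values under the block are given as a description.

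The log2 fold changes of some members changed sign. Egfr was at -0.33 with DESeq2, -0.49 with limma voom, -0.36 without both tumors and -0.37 with DESeq2 on 15 tumors. Erbb2 was at -0.048 with limma voom, -0.063 without both tumors and -0.070 with DESeq2 on 15. Erbb3 was at -0.30, -0.37, -0.38 and -0.33 under the 4 settings named for Egfr. Hgf was at -0.26 with limma voom, -0.27 without both tumors and -0.13 with DESeq2 on 15, and Met at -0.033 with limma voom. Fgfr1 was at 0.011 without both tumors and 0.089 with DESeq2 on 15, and Fgfr2 at -0.34 with DESeq2, -0.35 without both tumors and -0.30 with DESeq2 on 15. With 1 tumor left out in turn the ranges were 0.08 to 0.51 for Areg, 0.25 to 0.74 for Hbegf (both lowest without IL-33 replicate 6), -0.52 to -0.17 for Ereg, -0.35 to 1.15 for Egfr, -0.06 to 0.18 for Erbb2, -0.31 to 0.56 for Erbb3, -0.055 to 0.19 for Met, -0.12 to 0.48 for Hgf, -0.19 to 0.092 for Fgfr1 and -0.28 to 5.36 for Fgfr2. Of the tumors left out in turn, only IL-33 replicate 7 turned Egfr, Erbb2, Erbb3, Hgf and Fgfr2, while Met and Fgfr1, both near 0, turned with several tumors. On log2(CPM + 0.5), differences without it were -0.33 for Egfr, -0.017 for Erbb2, -0.22 for Erbb3, 0.14 for Fgfr1 and -0.014 for Fgfr2, and Areg was at -0.050 with TMM CPM.

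Correlations shifted as well. Without IL-33 replicate 7, r was 0.44 for Areg with Ereg, 0.57 for Areg with Hbegf, -0.25 for Ereg with Hbegf, 0.55 for Erbb2 with Erbb3 and 0.80 for Hgf with Met. Without both tumors it was 0.43, 0.64, -0.24, 0.59 and 0.58 for the same pairs, and 0.35 for Hgf with Fgfr1. Within the vehicle group it was 0.42, -0.0028, -0.77, 0.44, 0.95 and, for Hgf with Fgfr1, 0.80. Within the IL-33 treatment group it was 0.78 for Ereg with Hbegf, -0.46 for Hgf with Met and -0.57 for Hgf with Fgfr1. With CPM by total count, Ereg with Hbegf gave -0.64 and 0.73 and Hgf with Met 0.92 and -0.36 in the vehicle and IL-33 groups. On the TMM scale, Ereg with Hbegf gave -0.78 in the 7 vehicle tumors without replicate 4.

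Depth limited Fgfr2, Hgf and Erbb3, which had as few as 0, 5 and 14 counts in a tumor. The tumors could not be tied to mice.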
